A study of Mus musculus with 24 samples.

Results

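Complement is a cascade of plasma proteins that tags microbes, dying cells and debris, and C1qa, C1qb, C1qc, C4b, C2, C3, C3ar1, C5ar1 and Serping1 are genes of its recognition, activation, receptor and control steps. These 9 genes were chosen by name as complement components, receptors or regulators, with earlier results of these data known. They are 9 of the 55487 genes in the deposited tables. All 9 were among the 14690 genes tested, which had at least 0.5 TPM (a share of the library per gene, corrected for transcript length) in at least 8 libraries. C3ar1 reached 0.5 TPM in 3 of 8 uncasted libraries and in all libraries of both casted groups, so it entered the test through the casted libraries. The other members reached it in all 24 libraries.

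In the classical pathway, C1q, built from the products of C1qa, C1qb and C1qc, binds its target and activates attached proteases, which cut C4 and C2 to form an enzyme that cuts C3. Fragments of C3 coat the target for uptake, while the small fragments C3a and C5a signal to leukocytes through the receptors encoded by C3ar1 and C5ar1. Serping1 encodes the C1 inhibitor, which blocks the first proteases. Most plasma complement is made in the liver, whereas C1q is known mainly as a product of tissue macrophages and dendritic cells.

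Poly-adenylated RNA of the gastrocnemius, a calf muscle, was sequenced from 24 male C57BL/6J mice, with 8 libraries in each of 3 groups. In the group called casted with MOTS-c, both hindlimbs were held in casts for 8 days, and MOTS-c, a peptide encoded in mitochondrial DNA, was injected into the peritoneum at 15 mg/kg/day, divided over 2 injections daily and 8 days. The casted group had the same casts and was injected with sterilized water on that schedule, and the uncasted group was injected with the water and had no cast. The mice were 10 weeks old when assigned to groups, and the sample labels give 12 weeks. None of the 3 groups combined MOTS-c with uncasted limbs, so an effect of MOTS-c outside casting cannot be read from these libraries. Per library, 19832 to 21755 genes were above 0, and because TPM have a fixed total the depth is unknown. Markers of skeletal muscle were abundant, with sums over 6 genes of 60520 to 106900 scaled TPM in the casted libraries with MOTS-c, 55670 to 86830 in the casted ones and 124200 to 142900 in the uncasted ones. Casted replicates 1 to 4 and 5 to 8 stood apart in earlier results of these data, and replicate 5 of the casted group with MOTS-c lay nearer to the uncasted libraries than the rest of its group did (score of -17.8 on the first principal component, against 13.7 to 29.6 in the other libraries of its group). Results that rest on such libraries are given with and without them, and leaving out that replicate 5 changed the call of no member.

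In GRCm38 coordinates, the C1q genes form a cluster on the minus strand of chromosome 4, with C1qb at 136880129 to 136886187, C1qc at 136889804 to 136893065 and C1qa at 136895917 to 136898803. C4b (34728380 to 34743882) and C2 (34862604 to 34898265) lie near each other on chromosome 17, and C3 lies on the same chromosome at 57203970 to 57228136. C3ar1 lies on chromosome 6 (122847138 to 122856161), C5ar1 on chromosome 7 (16246743 to 16259540) and Serping1 on chromosome 2 (84765387 to 84775444). All are annotated as protein-coding. The values of C4b and C2 are less certain than the rest, since the transcript of C4b matched that of C4a at 95.9% identity over 5378 of its 5379 bases, and 42.8% of the exon bases of C2 are shared with Gm20547 on the same strand. The sources used here do not say how the authors' counting divided such reads or whether it used strand.

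RefSeq promoter sequences (GRCm38.p6, 250 bases before to 50 after the start, given in the direction of the gene) matched 5 of the 9 members. Those of 4 are shown, because C1qb, C1qc and C3ar1 deviated together between mice of a group while C3 deviated with C4b instead. Capitals mark matches, on either strand, to an NF-kB motif (GGGA and CC with any 4 bases between) or a PU.1 core (GAGGAAGT), factors known for inflammatory and macrophage genes. The windows are chr4:136886151-136886450 for C1qb, chr4:136892865-136893164 for C1qc, chr6:122856108-122856407 for C3ar1 and chr17:57228087-57228386 for C3, all on the minus strand.
C1qb: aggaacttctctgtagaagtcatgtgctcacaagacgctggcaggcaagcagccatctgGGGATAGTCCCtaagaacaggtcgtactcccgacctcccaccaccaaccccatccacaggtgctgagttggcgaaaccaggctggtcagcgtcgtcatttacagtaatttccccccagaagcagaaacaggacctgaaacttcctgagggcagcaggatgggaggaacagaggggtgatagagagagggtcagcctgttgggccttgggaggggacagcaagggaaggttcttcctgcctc
C1qc: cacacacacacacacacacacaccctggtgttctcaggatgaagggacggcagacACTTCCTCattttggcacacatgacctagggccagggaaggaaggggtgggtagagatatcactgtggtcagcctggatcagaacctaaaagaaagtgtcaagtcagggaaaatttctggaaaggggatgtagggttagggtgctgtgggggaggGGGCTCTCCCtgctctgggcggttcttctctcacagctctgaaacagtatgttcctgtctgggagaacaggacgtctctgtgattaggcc
C3ar1: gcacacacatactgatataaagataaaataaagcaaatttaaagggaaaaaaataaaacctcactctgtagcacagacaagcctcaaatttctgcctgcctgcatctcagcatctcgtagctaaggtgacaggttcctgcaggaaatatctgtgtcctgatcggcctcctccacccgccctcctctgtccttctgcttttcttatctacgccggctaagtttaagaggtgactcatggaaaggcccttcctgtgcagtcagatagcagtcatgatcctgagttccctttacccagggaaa
C3: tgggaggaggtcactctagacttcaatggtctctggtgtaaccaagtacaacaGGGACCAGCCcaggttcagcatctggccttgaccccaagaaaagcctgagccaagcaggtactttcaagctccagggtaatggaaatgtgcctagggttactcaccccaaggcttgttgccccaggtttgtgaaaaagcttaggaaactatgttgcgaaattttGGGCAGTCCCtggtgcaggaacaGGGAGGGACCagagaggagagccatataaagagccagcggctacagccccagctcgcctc
The NF-kB motif matched in 3 of the 5 promoters, those of C1qb, C1qc and C3, against 20.7% of all 32851 promoters in the table. Relative to the RefSeq start, C1qb held 2 overlapping matches at positions -191 and -190, C1qc held 1 at -40 and C3 held 3 at -197, -33 and -10. Of the 5 promoters, only that of C3 has its RefSeq start at the GENCODE gene boundary given above. The PU.1 core matched in C1qc, at -195 and on the other strand, and in 3.2% of all promoters. An interferon-stimulated response element (GAAA and GAAA with any 2 bases between, 3.44% of all promoters) and a STAT element (TTCNNNGAA, 8.3%) matched in none of the 5, which says only that these letters are not in these windows. C3ar1 and C5ar1 held no match to the 4 motifs.

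Most of the complement genes were higher in casted mice with MOTS-c than in uncasted mice, 5 of 9 were higher in casted mice, and none passed the test between the casted mice with MOTS-c and the casted mice. Against uncasted mice, 8 of 9 were higher in the casted mice with MOTS-c, all but C2, where 26.0% of all genes tested were higher and 24.7% lower. Casting with water gave 5 of 9 higher (C1qa, C1qb, C1qc, C4b and C3ar1), where 28.7% of all genes were higher and 27.7% lower. C3ar1 entered this test only through casted libraries, and without the filter on low values 3 of 9 members passed in limma, with C1qa (limma adjusted p = 0.0739) and C3ar1 (0.0549) lost, where 13.9% of 30779 genes were higher. None of the 9 was lower in either comparison, by an adjusted or an unadjusted limma p under 0.05. The median log2 change of the 9 was 0.81 for casting with MOTS-c (0.01 over all genes) and 0.33 for casting (0.01 over all genes). Both comparisons share the uncasted libraries, and the list was not tested against other genes.

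These directions are relative to TPM scaled so that the bulk of genes keeps its level. On the deposited TPM, where the median gene was 0.34 higher (log2) with casting and MOTS-c and 0.39 higher with casting, 9 and 8 of the 9 members were higher, with backgrounds of 60.0% and 62.2% of all genes. With scaling by the median ratio, 9 and 6 members were higher, with backgrounds of 32.7% and 36.4%. Every library of the casted group with MOTS-c lay above every uncasted library for 4 members, C1qa, C1qb, C4b and C5ar1 (7.26% of all genes did so), and every casted library did so for C4b alone (11.5% of all genes).

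**Figure D1:**
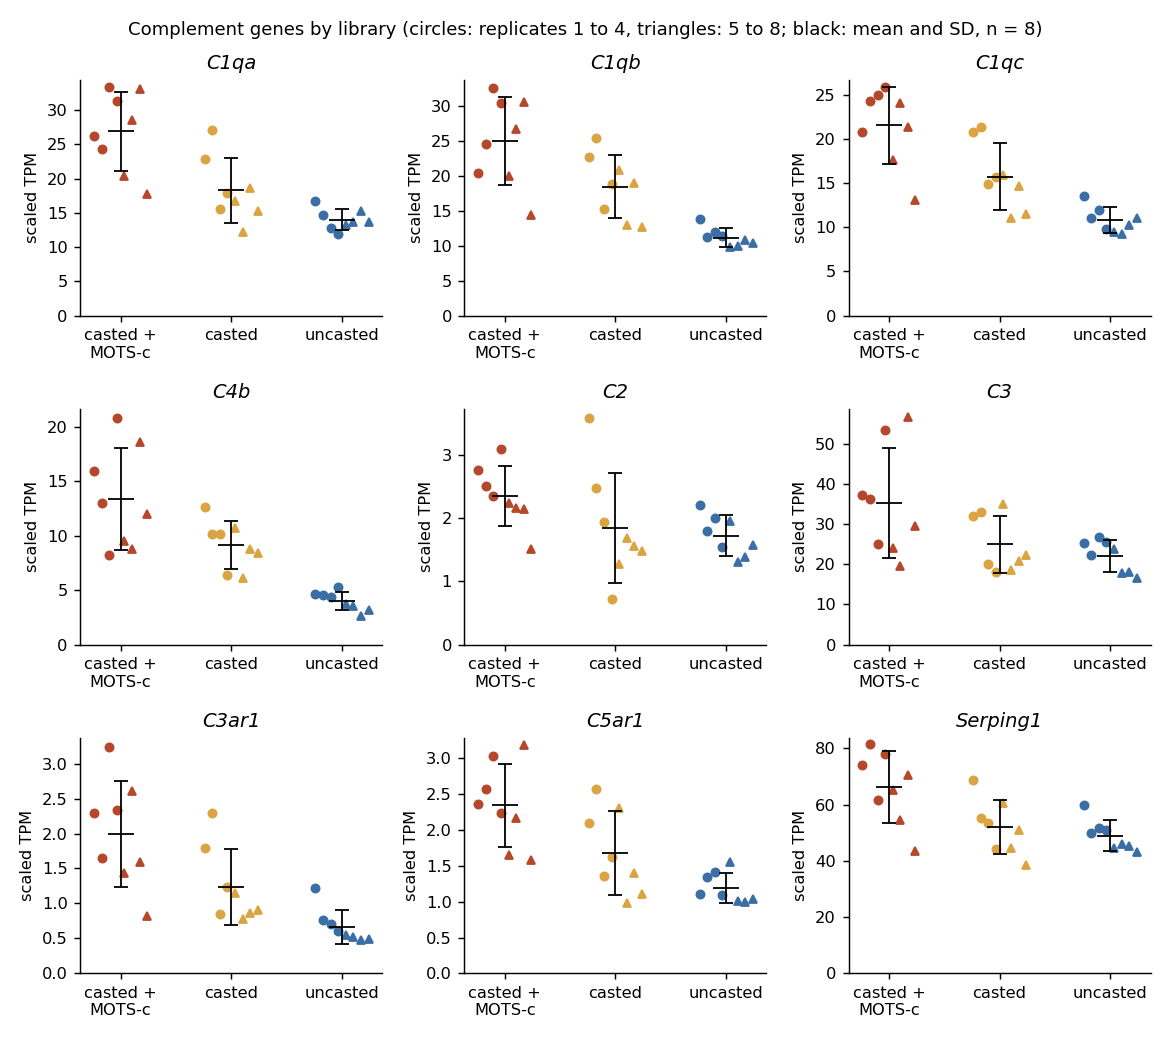
Scaled TPM of the 9 complement genes in each library (1 point per mouse; circles are replicates 1 to 4, triangles 5 to 8), with the mean and SD of 8 libraries per group in black; each panel has its own axis from 0. C4b is the gene whose casted libraries (6.13 to 12.7) all sit above the uncasted ones (2.66 to 5.26).

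The members kept a similar order of level, in scaled TPM, in the 3 groups. Serping1 was the most abundant, at 66.2 ± 12.7 in casted mice with MOTS-c, 52.1 ± 9.73 in casted mice and 48.9 ± 5.43 in uncasted mice (SD, n = 8 each), and it exceeded C3 in every library. C3 came next, at 35.3 ± 13.7, 25.0 ± 7.16 and 22.1 ± 4.05 in the same order of groups. C3 was above the leading C1q gene in 6, 7 and 8 of 8 libraries, with overlapping ranges. The C1q genes followed with ranges that overlapped each other in every group, then C4b. C2, C5ar1 and C3ar1 were lowest, with group means between 0.668 and 2.35, and neighbours in that order overlapped in each group. C4b was above all 3 of them in every library, without overlap.

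Of the recognition subunits, C1qa had a lowest, median and highest level of 17.7, 27.4 and 33.4 scaled TPM in casted mice with MOTS-c, 12.2, 17.3 and 27.1 in casted mice, and 11.9, 13.7 and 16.7 in uncasted mice. All 8 libraries with casting and MOTS-c exceeded the highest uncasted library, as did 5 of 8 casted libraries. C1qb had 14.5, 25.7 and 32.7 scaled TPM in casted mice with MOTS-c, 12.8, 18.9 and 25.4 in casted mice, and 9.83, 11.0 and 13.8 in uncasted mice. The group with MOTS-c again lay wholly above the uncasted one, and 6 of 8 casted libraries did. C1qc had 13.1, 22.8 and 25.9 scaled TPM in casted mice with MOTS-c, 11.1, 15.3 and 21.4 in casted mice, and 9.20, 10.6 and 13.6 in uncasted mice. Here 7 libraries with casting and MOTS-c and 6 casted libraries exceeded every uncasted one. Replicate 8 was the lowest of the group with MOTS-c for all 3 genes.

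All 3 C1q genes rose with casting and MOTS-c against uncasted mice, under each of the scalings tried. The log2 changes were 0.87 ± 0.13 for C1qa (SE, limma adjusted p = 7.96e-06), 1.06 ± 0.15 for C1qb (2.11e-06) and 0.92 ± 0.13 for C1qc (3.62e-06). With casting and water they were 0.33 ± 0.13 (limma adjusted p = 0.0359), 0.65 ± 0.15 (0.000539) and 0.48 ± 0.13 (0.00299) for the same genes. The call for C1qa with casting is the least certain of these: it was lost in 8 of the 24 fits that each left out 1 library (limma adjusted p between 0.0098 and 0.0905), namely those without uncasted replicate 3, 4, 5, 6 or 8 or casted replicate 1, 2 or 7. When casted replicates 5 to 8 alone stood for the casted group, the changes were 0.15 for C1qa (limma adjusted p = 0.403) and 0.27 for C1qc (0.115), neither of which passed, and 0.49 for C1qb (0.0189), which did. With casted replicates 1 to 4 alone all 3 passed, by 0.52 for C1qa (limma adjusted p = 0.00942), 0.81 for C1qb (0.000623) and 0.70 for C1qc (0.000698). Those 4 libraries gave 6 members higher with casting, where 20.7% of all genes were higher, and replicates 5 to 8 gave 2, where 28.5% were.

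Of the proteins that C1 cuts, C4 is encoded by C4b, which had the largest log2 change of the 9 members in both comparisons with uncasted mice. Its lowest, median and highest levels were 8.19, 12.5 and 20.7 scaled TPM in casted mice with MOTS-c, 6.13, 9.44 and 12.7 in casted mice, and 2.66, 4.03 and 5.26 in uncasted mice. Neither casted group overlapped the uncasted one. C4b rose by a log2 change of 1.48 ± 0.17 with casting and MOTS-c (limma adjusted p = 1.56e-07) and 1.02 ± 0.17 with casting (limma adjusted p = 1.64e-05), a ratio of group means of 3.35 and 2.30. Leaving out any 1 library moved these changes between 1.38 and 1.56 and between 0.95 and 1.09. Its near copy C4a averaged 0.382 ± 0.352, 0.196 ± 0.162 and 0.257 ± 0.290 scaled TPM in the same order of groups, far below C4b in each.

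C2, which supplies the protease of the enzyme that cuts C3, had 1.51, 2.30 and 3.10 scaled TPM (lowest, median and highest) in casted mice with MOTS-c, 0.722, 1.62 and 3.59 in casted mice, and 1.31, 1.69 and 2.21 in uncasted mice. The casted group spanned both others, with replicate 1 the highest and replicate 4 the lowest of all 24 libraries. The log2 change was 0.29 with casting and MOTS-c (95% interval 0.01 to 0.58, limma adjusted p = 0.0812) and 0.01 with casting (-0.27 to 0.30, limma adjusted p = 0.941). The comparison of casting and MOTS-c with uncasted mice passed for C2 in fits without casted replicate 1 (limma adjusted p = 0.0372), without casted replicate 4 (0.0468) or without replicate 8 of the group with MOTS-c (0.04). The casted libraries enter that comparison only through the shared estimate of the spread. With only the groups compared in the fit it passed (limma adjusted p = 0.0182), as it did with casted replicates 5 to 8 alone in the casted group (0.0112), with median-ratio scaling (0.0387) and on the deposited TPM (0.00198).

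C3, where the activation pathways meet, had 19.7, 33.0 and 56.9 scaled TPM (lowest, median and highest) in casted mice with MOTS-c, 18.0, 21.7 and 35.2 in casted mice, and 16.5, 23.1 and 26.9 in uncasted mice. Replicates 4 and 7 of the group with MOTS-c were highest, at 53.7 and 56.9, and the ranges of all groups overlapped. C3 was higher with casting and MOTS-c by a log2 change of 0.59 ± 0.19 (limma adjusted p = 0.0119). With casting the log2 change was 0.15, with a 95% interval of -0.24 to 0.54 (limma adjusted p = 0.518).

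Of the receptors for the small fragments, C3ar1 had 0.823, 1.97 and 3.23 scaled TPM (lowest, median and highest) in casted mice with MOTS-c, 0.775, 1.03 and 2.29 in casted mice, and 0.480, 0.580 and 1.22 in uncasted mice. Uncasted replicate 1 stood above the other uncasted libraries, and 7 libraries with casting and MOTS-c and 3 casted libraries exceeded it. The log2 change of C3ar1 was 0.81 ± 0.15 with casting and MOTS-c (limma adjusted p = 6.72e-05) and 0.40 ± 0.15 with casting (limma adjusted p = 0.0241). Since C3ar1 entered the test through its casted libraries, these calls carry that selection, and without the filter on low values the limma adjusted p was 0.000265 with casting and MOTS-c and 0.0549 with casting. The call with casting was lost without casted replicate 1 (log2 change 0.35, limma adjusted p = 0.052) or casted replicate 2 (0.31, limma adjusted p = 0.0607), and with casted replicates 5 to 8 alone in the casted group (0.21, limma adjusted p = 0.28). With casted replicates 1 to 4 alone it was kept (0.59, limma adjusted p = 0.0138).

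C5ar1 had 1.58, 2.30 and 3.18 scaled TPM (lowest, median and highest) in casted mice with MOTS-c, 0.979, 1.51 and 2.57 in casted mice, and 0.995, 1.10 and 1.55 in uncasted mice. Every library of the group with MOTS-c exceeded every uncasted library, and 4 of 8 casted libraries exceeded the highest uncasted one. The log2 change was 0.60 ± 0.12 with casting and MOTS-c (limma adjusted p = 0.000198). With casting it was 0.26, with a 95% interval of 0.02 to 0.51, and did not pass (limma adjusted p = 0.0617). It passed without uncasted replicate 5 (limma adjusted p = 0.0454), casted replicate 6 (0.023) or casted replicate 8 (0.0333), and with casted replicates 1 to 4 alone in the casted group (log2 change 0.40, limma adjusted p = 0.0195). Median-ratio scaling (limma adjusted p = 0.024), a separate spread per group (0.0446), a replicate block (0.0499) and the deposited TPM (0.000658) also gave a pass. A pseudocount of 0.1 (limma adjusted p = 0.056), only the 2 groups compared (0.0603), no filter (0.124), casted replicates 5 to 8 alone (0.431) and a fold of at least 1.2 (0.964) did not. Hc, which encodes C5, the source of the C5ar1 ligand, was listed at 0 in all 24 libraries.

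Serping1, the inhibitor of the first proteases, had 43.6, 67.9 and 81.7 scaled TPM (lowest, median and highest) in casted mice with MOTS-c, 38.6, 52.2 and 68.8 in casted mice, and 43.1, 48.0 and 59.8 in uncasted mice. Replicate 8 was the lowest library in each casted group, and the ranges of all groups overlapped. Serping1 was higher with casting and MOTS-c by a log2 change of 0.41 ± 0.12 (limma adjusted p = 0.00496). With casting the log2 change was 0.07 (95% interval -0.17 to 0.31, limma adjusted p = 0.608).

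**Figure D2:**
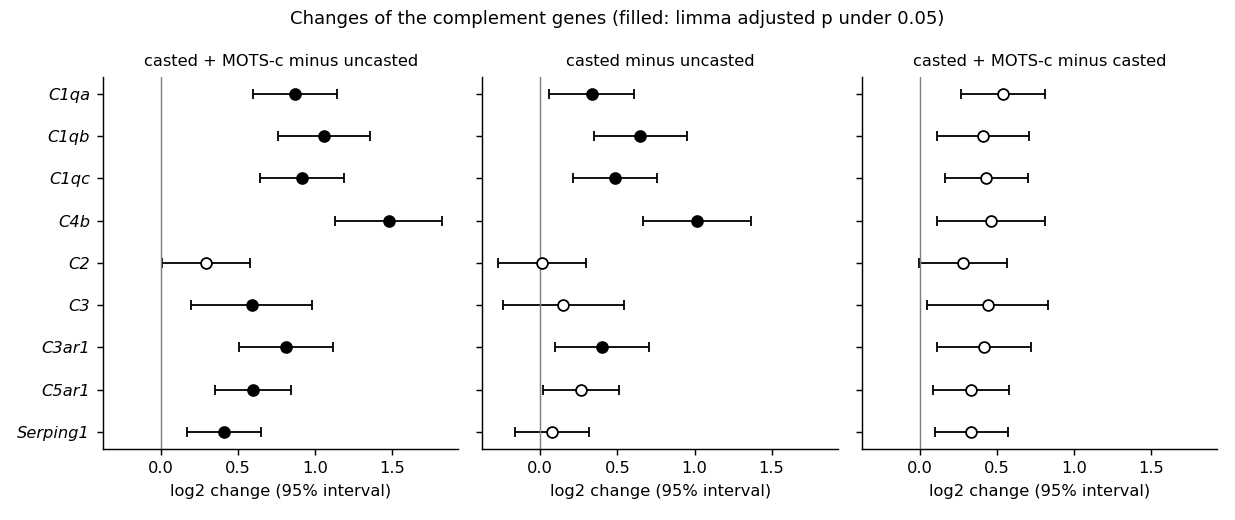
Log2 changes of the 9 genes with 95% intervals from limma in the 3 comparisons; filled points passed an adjusted p of 0.05 and open points did not. With casting and MOTS-c 8 points are filled, with casting 5, and between the casted groups none, though all 9 lie above 0.

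The remaining comparison set the casted mice with MOTS-c against the casted mice. None of the 9 genes passed in limma, where 2 of all genes tested were higher (0.0136%) and 1 lower (0.00681%). None passed on the deposited TPM (0.0204% of all genes were higher there), and for none did the groups' ranges separate (0.0408% of all genes). All 9 log2 differences were above 0, as were 48.6% over all genes, with a median of 0.41 for the members and -0.005 for all genes. By limma without adjustment, at the same threshold, 8 of 9 members were higher, against 6.39% of all genes, and C2 was not. Mean levels were 1.27 to 1.62 times those of casted mice. As the members deviated together between mice of a group, these signs are not 9 separate observations.

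C1qa had the largest log2 difference, 0.54 with a 95% interval of 0.26 to 0.81 (limma adjusted p = 0.105), and 7 of 8 libraries with MOTS-c exceeded the casted mean. The difference was 0.46 for C4b (0.11 to 0.81, limma adjusted p = 0.264), 0.44 for C3 (0.05 to 0.83, 0.328) and 0.34 for Serping1 (0.10 to 0.58, 0.246). The other members lay between 0.28 for C2 and 0.43 for C1qc, with limma adjusted p between 0.196 and 0.381. C1qa passed without casted replicate 1 (limma adjusted p = 0.0496) and without replicate 8 of the group with MOTS-c (0.0416), and no other member passed in a fit without 1 library.

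This comparison depended on which casted libraries entered. The split into casted replicates 1 to 4 and 5 to 8 was made after earlier results of these data were seen, so fits with 1 set alone are descriptive. Against casted replicates 5 to 8 alone, 6 of 9 members were higher with MOTS-c, C1qa, C1qb, C1qc, C2, C3ar1 and C5ar1, where 4.62% of all genes were. The log2 changes in that fit ran from 0.41 for C2 to 0.73 for C1qa (limma adjusted p = 0.00475). Against casted replicates 1 to 4 alone none passed in limma, and the difference for C1qa was 0.35 (limma adjusted p = 0.925). Casted replicates 1 to 4 averaged 20.9 scaled TPM of C1qa and 1.54 of C3ar1, and replicates 5 to 8 averaged 15.7 and 0.922. C3 averaged 25.8 and 24.3 scaled TPM in these sets of 4, whose ranges overlapped. The labels do not say what sets them apart.

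Between mice of a group, the members varied together to unequal degrees. Deviations of log2 values from the group means were correlated over the 24 libraries for all 36 pairs of members, with permutation within groups. All 36 Pearson coefficients were above 0, from 0.15 to 0.91 with a median of 0.58, and 24 pairs passed a permutation p adjusted over the 36 (20 pairs by Spearman's rho). Without the 2 libraries farthest from the median of the first gene, 20 pairs passed. On the deposited TPM 29 passed, and the libraries share their scaling and total.

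One set of tight pairs joined the C1q genes and C3ar1. C1qb and C1qc had r = 0.91 and rho = 0.84 (permutation p = 1e-05 for each, the smallest that 100000 permutations can give, adjusted p = 0.00012 for each; r = 0.85 without the 2 farthest libraries). C1qc and C3ar1 had r = 0.86 and rho = 0.83 (permutation p = 2e-05 and 1e-05, adjusted p = 0.000144 and 0.00012; r = 0.80 without the 2 farthest). In uncasted mice alone, r was 0.41 for C1qa with C1qb and 0.54 for C1qa with C1qc. In the casted groups these 2 pairs ran from 0.84 to 0.95. The other tight pair was C3 and C4b, with r = 0.89 and rho = 0.88 (permutation p = 1e-05 for each, adjusted p = 0.00012 for each; r = 0.84 without the 2 farthest). Within the groups r for C3 and C4b was 0.95 in casted mice with MOTS-c, 0.79 in casted mice and 0.81 in uncasted mice, over 8 libraries each.

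Across these sets the relation was weaker or not detected. C4b and C3ar1 had r = 0.15 and rho = 0.25 (permutation p = 0.544 and 0.293, adjusted p = 0.544 and 0.302; r = 0.30 without the 2 farthest). C3 and C3ar1 had r = 0.24 and rho = 0.32 (permutation p = 0.344 and 0.181, adjusted p = 0.353 and 0.197; r = 0.29 without the 2 farthest). C5ar1 passed with members of both sets, at r = 0.72 to 0.79 with the C1q genes and 0.60 with C3. It did not pass with C4b (r = 0.39) or C2 (0.37). Serping1 passed with each of the other 8 members by Pearson's r, from 0.50 with C1qa and C3ar1 to 0.73 with C1qc, and with 6 of them by Spearman's rho. Without the 2 farthest libraries its pairs with C1qa (r = 0.37, adjusted permutation p = 0.161) and C1qb (0.43, 0.117) did not pass, and the others did. In casted mice alone every pair was at 0.32 or above, C4b and C3ar1 among them at 0.50, while that pair was at -0.17 in casted mice with MOTS-c.

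**Figure D3:**
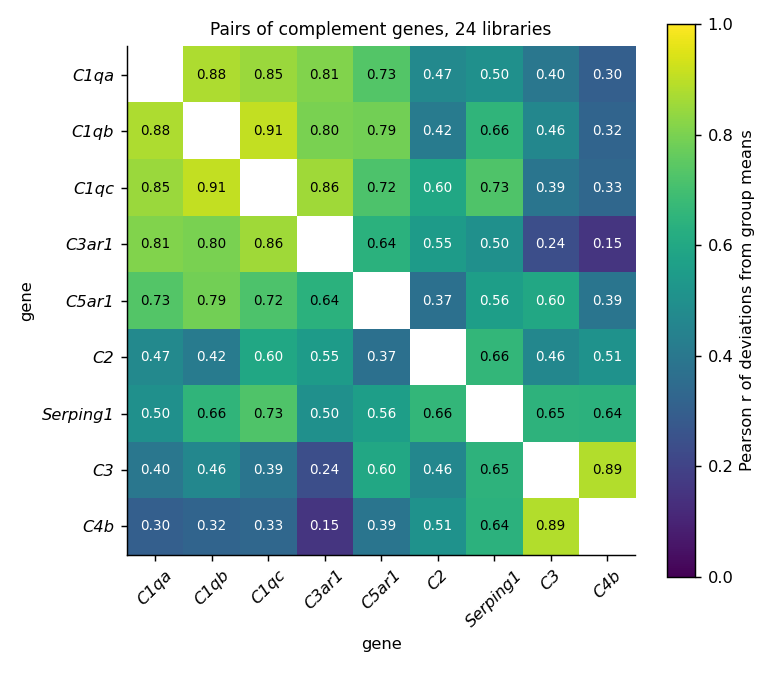
Pearson r of the deviations from the group means for each pair of the 9 genes over 24 libraries (colour from 0 to 1). The block of C1q genes and C3ar1 (0.80 to 0.91) and the pair of C3 and C4b (0.89) are the brightest, and C4b with C3ar1 (0.15) is the darkest.

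Among 11308 other genes with a mean of at least 1 scaled TPM, those whose deviations were most like the members' differed between these sets. The 5 nearest to C1qb were Laptm5 (r = 0.87), Ctsh, Msr1, Mrc1 and Lyz2 (0.86), of which Msr1 and Mrc1 encode macrophage receptors and Lyz2 lysozyme. For C3 they were Mmp3 (r = 0.83), Plac8, Dram1, Lyve1 and Gfpt2 (0.75). Lyve1 is one of the 16 macrophage markers described next. Mmp3, which encodes a protease of the extracellular matrix, and Plac8 were also first and second for C4b (r = 0.75 and 0.74), followed by Mup22, Trf and Cfd, the gene of complement factor D (0.70). For Serping1 the first was C1ra (r = 0.91) and the fourth C1s1 (0.87), which encode the proteases its product inhibits, with Adgrd1, Prelp and Tnxb beside them. These coefficients describe 24 libraries and carry no test.

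Most tested macrophage markers were, like the C1q genes, higher in both casted groups than in uncasted mice. Of 16 macrophage markers 15 were tested. Fcgr1 averaged 0.191 TPM as deposited in uncasted mice and entered the test mainly through the casted libraries. Its call as higher with casting carries that selection. With casting and MOTS-c 13 were higher and none lower (26.0% and 24.7% of all genes). With casting 9 were higher and 2 lower (28.7% and 27.7% of all genes). The 2 were Mertk (log2 change -0.34, limma adjusted p = 0.00181) and Folr2 (-0.36, 0.0469), and neither passed on the deposited TPM. Between the casted groups none of the 15 passed in limma, and 10 were higher without adjustment (6.39% of all genes). The 16 markers together had a lowest, median and highest sum of 134.8, 227.6 and 336.5 scaled TPM in casted mice with MOTS-c. That sum was 106.2, 162.8 and 269.6 in casted mice, and 85.8, 93.4 and 113.5 in uncasted mice. Lyz2 and Cd68 made much of that sum, with Lyz2 at 102.3 ± 31.7, 66.0 ± 19.6 and 43.9 ± 4.34 and Cd68 at 26.7 ± 15.2, 28.9 ± 13.6 and 3.82 ± 1.26 scaled TPM in the same order of groups. The summed C1q level was 26.0 to 38.3% of the macrophage sum in casted mice with MOTS-c (median 32.0%), 27.4 to 34.2% in casted mice (median 32.1%) and 34.8 to 38.9% in uncasted mice (median 38.2%). That percentage rested in part on Cd68. Without Cd68, a choice made after seeing the data, it was 31.0 to 42.3% in casted mice with MOTS-c (median 35.7%), 33.7 to 43.9% in casted mice (median 37.4%) and 36.2 to 41.6% in uncasted mice (median 39.4%), and the ranges of all groups overlapped. The part of macrophage number in the C1q changes was not tested, and in bulk muscle more cells of a type and more RNA per cell cannot be told apart.

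**Figure D4:**
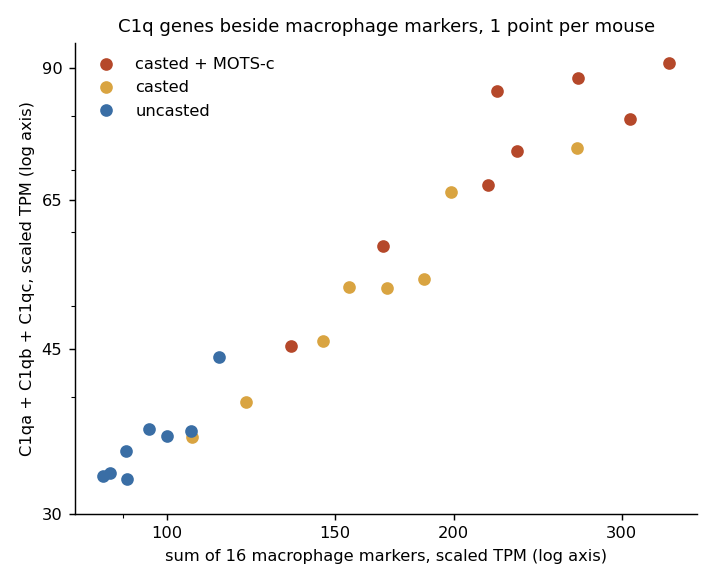
Summed scaled TPM of C1qa, C1qb and C1qc against the summed scaled TPM of 16 macrophage markers, both on log axes, 1 point per mouse. Uncasted mice sit at the lower left (C1q sums of 32.7 to 44.1), casted mice with MOTS-c run to the upper right (45.3 to 91.0) and casted mice overlap both (36.3 to 73.9).

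For markers of other cell types the counts differed between lists and, for some, between scalings. All 4 tested neutrophil markers were higher in both comparisons with uncasted mice, with summed levels of 4.11 to 23.4 scaled TPM in casted mice with MOTS-c, 4.87 to 19.3 in casted mice and 0.204 to 1.61 in uncasted mice, though Ly6g and Mpo stayed under 0.5 TPM in every library. The 4 tested, S100a8, S100a9, Csf3r and Retnlg, averaged 0.07 to 0.279 TPM as deposited in uncasted mice. They entered the test mainly through the casted libraries, so this count carries that selection. Of 10 fibroblast and fibro-adipogenic markers none was higher, and 3 and 6 were lower with casting and MOTS-c and with casting. Of 7 endothelial markers 1 was higher in each comparison, and 5 and 6 were lower. Over all genes 26.0% were higher and 24.7% lower with casting and MOTS-c, and 28.7% and 27.7% with casting. On the deposited TPM the fibroblast counts were 5 higher and none lower with casting and MOTS-c, and 3 and 3 with casting. The endothelial counts there were 2 and 1, and 2 and 2, and 60.0% and 62.2% of all genes were higher. Of 6 adipocyte markers 3 were higher and 1 lower with casting and MOTS-c, and 1 and 1 with casting (5 and 4 higher and none lower on the deposited TPM). Between the casted groups none of these markers passed in limma, while 10 of 10 fibroblast, 7 of 7 endothelial, 5 of 6 adipocyte and 3 of 4 neutrophil markers had log2 differences above 0 (48.6% of all genes). By limma without adjustment 5, 3, 3 and 0 of these were higher (6.39% of all genes). Among them the adipocyte marker Fabp4 averaged 254.7 ± 23.3 scaled TPM in casted mice with MOTS-c and 184.3 ± 37.8 in casted mice, without overlap, and the log2 difference was 0.49 (limma adjusted p = 0.0826). The skeletal muscle markers lay above 0 in that comparison too, 6 of 6 with a median of 0.12. None of them had an unadjusted limma p under 0.05. All 7 hepatocyte markers were under 0.5 TPM in every library, with Ttr and Fgb at 0 throughout. Of the 7 lymphocyte markers none was tested, and their sums stayed under 0.858 scaled TPM. The part of these cell types in the complement changes was not tested.

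Of 42 other complement genes, 21 were tested. Of these, 8 were higher and 6 lower with casting and MOTS-c, where 26.0% of all genes were higher and 24.7% lower. With casting 4 were higher and 8 lower, where 28.7% and 27.7% of all genes were. On the deposited TPM the counts were 12 and 1, and 11 and 1, where 60.0% and 62.2% of all genes were higher. Their median log2 changes were 0.10 and -0.11. None passed between the casted groups in limma, where 20 of 21 log2 changes were above 0 (48.6% of all genes) and 7 had an unadjusted p under 0.05, all higher (6.39% of all genes).

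The activators of the alternative pathway, Cfb, Cfd and Cfp, were all higher with casting and MOTS-c, without overlap with uncasted mice. Cfb, which encodes the protease of the alternative C3-cutting enzyme, averaged 4.83 ± 1.56 scaled TPM in casted mice with MOTS-c, 3.24 ± 1.43 in casted mice and 1.94 ± 0.33 in uncasted mice. It rose by a log2 change of 0.95 ± 0.17 (limma adjusted p = 4.01e-05) and, with casting, of 0.48 ± 0.17 (limma adjusted p = 0.0162). Cfd, which encodes the adipocyte-made protease that cuts factor B, averaged 84.2 ± 22.4 scaled TPM in casted mice with MOTS-c, 54.6 ± 12.2 in casted mice and 44.7 ± 8.84 in uncasted mice, a log2 change of 0.88 ± 0.16 with casting and MOTS-c (limma adjusted p = 7.04e-05). With casting, neither Cfd (log2 change 0.28, limma adjusted p = 0.138) nor Cfp (0.09, 0.484) passed.

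Of 5 tested genes of the classical and lectin activators, 1 was higher and 1 lower with casting and MOTS-c, and none was higher and 2 lower with casting. Fcna, a ficolin gene, rose by a log2 change of 0.73 ± 0.15 with casting and MOTS-c (limma adjusted p = 0.000253). Masp1, a lectin-pathway protease gene, fell by 0.44 ± 0.09 on the log2 scale with casting (limma adjusted p = 0.000267), a call lost on the deposited TPM (-0.16). C1s1, the gene of a C1 protease, was at 16.4 ± 4.46 scaled TPM in casted and 22.5 ± 2.62 in uncasted mice, a log2 change of -0.46 (limma adjusted p = 0.00368) that turned to 0.03 on the deposited TPM. Of the 7 terminal components 5 were below the limit for testing, and neither C7 nor C8g passed.

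Of 5 tested regulators on the membrane of host cells, 1 was higher and 3 lower in both comparisons with uncasted mice. On the deposited TPM 3 were higher and 1 lower in both, where 60.0% and 62.2% of all genes were higher. Cd59b, which encodes an inhibitor of the membrane attack complex, fell most, to 1.16 ± 0.82 scaled TPM in casted mice with MOTS-c and 0.763 ± 0.415 in casted mice, against 4.39 ± 0.99 in uncasted mice. Its log2 changes were -1.38 ± 0.18 (limma adjusted p = 7.03e-07) and -1.62 ± 0.18 (limma adjusted p = 3.8e-08), and it was lower on the deposited TPM too. Cd59a, a close paralog whose reads may be shared with it, changed by -0.58 with casting (limma adjusted p = 0.00062), and Cr1l, a membrane regulator of C3 cleavage, by -0.22 (limma adjusted p = 0.00331). On the deposited TPM Cd59a did not pass, and Cr1l was higher by 0.27 (limma adjusted p = 0.00586). Cd46 was higher with casting and MOTS-c, by 0.42 ± 0.09 (limma adjusted p = 0.0002). The fluid-phase regulator Vtn was lower in both comparisons, by log2 changes of -0.45 and -0.48 (limma adjusted p = 0.000404 and 0.000157) that did not pass on the deposited TPM.

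Among receptors, Itgam and Itgb2, which encode the chains of a complement receptor on myeloid cells, were higher, and Cd93 was lower. Itgb2 averaged 3.22 ± 1.02 scaled TPM in casted mice with MOTS-c, 2.65 ± 0.86 in casted mice and 1.33 ± 0.26 in uncasted mice, log2 changes of 0.82 ± 0.15 (limma adjusted p = 6.59e-05) and 0.62 ± 0.15 (limma adjusted p = 0.00102). Itgam averaged 2.89 ± 1.14, 2.14 ± 1.52 and 0.920 ± 0.326 scaled TPM in the same groups, and its log2 change with casting and MOTS-c was 0.98 ± 0.21 (limma adjusted p = 0.000424). Cd93, a gene of endothelial and myeloid cells, changed by -0.60 ± 0.13 with casting (limma adjusted p = 0.000239), which did not pass on the deposited TPM.

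**Figure D5:**
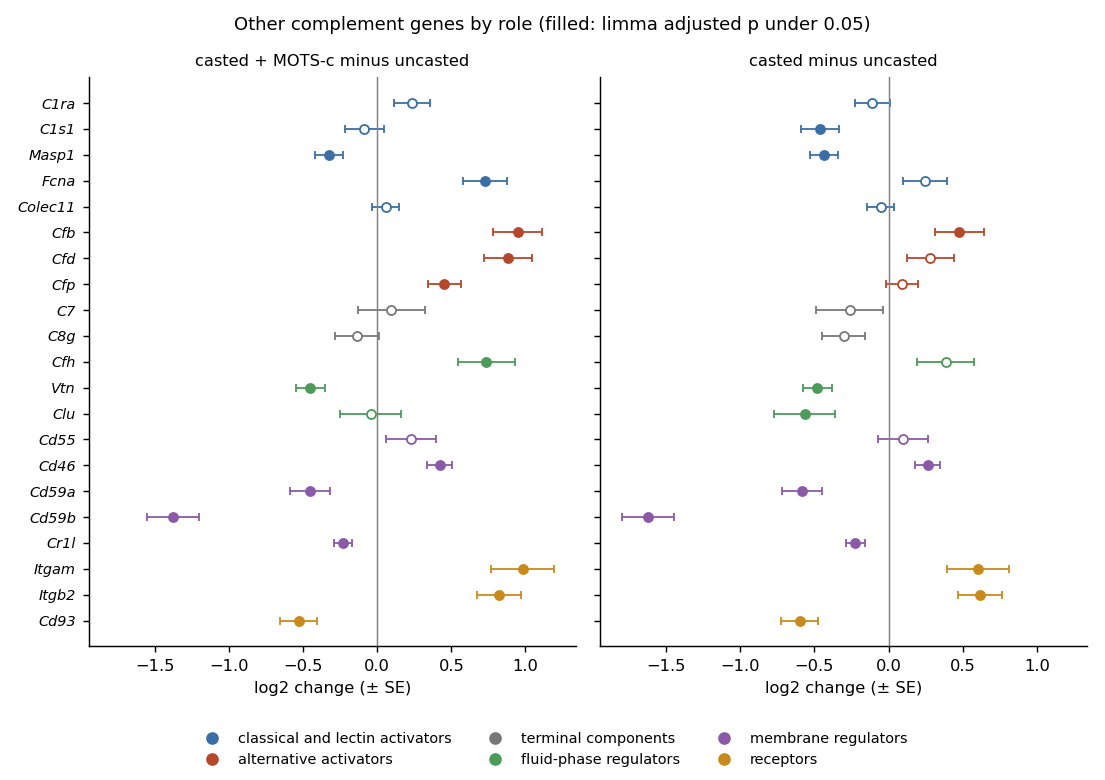
Log2 changes with SE of the 21 tested complement genes outside the 9, grouped by role (colours); filled points passed a limma adjusted p of 0.05. Cfb, Cfd and Cfp lie to the right with casting and MOTS-c, and Cd59b is farthest left in both panels (-1.38 and -1.62).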

How the data were processed

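The deposited values are TPM, 1 table of 55487 Ensembl genes per library. Per the submitters' processing notes, the authors used FastQC, STAR, RSEM and DESeq2 with genome build GRCm38.p6, and versions are not given in the sources used here. TPM were scaled between libraries by an unweighted trimmed mean of log ratios over the genes tested (30% of ratios and 5% of levels trimmed at each end), which gave mean factors of 1.09 for casted libraries with MOTS-c, 1.15 for casted and 0.803 for uncasted ones. The log2(scaled TPM + 1) values of all 24 libraries entered 1 fit of 3 group means in limma 3.58.1 (R 4.3.3), as a moderated, trended, two-sided linear model. Fold changes on this scale understate those of low genes. Benjamini-Hochberg adjustment ran over the 14690 genes of each comparison with a threshold of 0.05. The design counts 8 mice and 8 libraries per group. The scripts were tested on simulated data. Pairs of members were permuted within groups 100000 times (numpy 2.4.6, scipy 1.17.1). Likeness was Pearson's r of deviations from group means, over genes with a mean of at least 1 scaled TPM and no predicted-gene symbol. Near copies were found with blastn 2.17.0 against the annotated transcripts, and coordinates are 1-based, from a GENCODE annotation of GRCm38. Of the other complement genes, the text names those of smallest p, 8 for casting and 8 for casting with MOTS-c, besides C4a, Cfp, C7, C8g and Hc, which were named after their values were seen. The members and all lists were chosen with earlier results of these data known. No 2 libraries looked like 1 deposited again (equal values in 1.34% of tested genes or fewer). Alternatives were the deposited TPM, median-ratio scaling, a pseudocount of 0.1, no filter, only 2 groups, a replicate block, a separate spread per group, casted replicates 1 to 4 or 5 to 8 alone, a fold of at least 1.2, and each library left out.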

Additional observations from a re-analysis of the deposited data

Results flagged for a closer look

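Of 27 sets of 8 libraries (9 members in 3 groups), 1 held a library far from the others. C3ar1 was at 1.215 scaled TPM in uncasted replicate 1, against 0.766 in the nearest other uncasted library. The gap was 0.611 of the group's range, above Dixon's limit for 8 libraries, and chance alone passes that limit in about 1 of 20 such sets.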

How the results depend on the processing

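Every member's direction held in all alternatives wherever it was called, and no member's call turned round. Values are TPM with unknown depth, so no counting error can be given, and levels of C3ar1, C5ar1 and C2 near 1 TPM are the least precise. The count of members higher with casting (5) was 8 on the deposited TPM (62.2% of all genes), 3 without a filter on low values (13.9%), 6 with only casted replicates 1 to 4 (20.7%), 2 with only casted replicates 5 to 8 (28.5%), 2 against a fold of at least 1.2, and 3 to 6 with 1 library left out (3 without casted replicate 1 or 2). The count with casting was also 6 with median-ratio scaling (36.4%), a separate spread per group or a replicate block. Each added C5ar1, and over all genes the last 2 gave 4342 and 4241 of 14690 higher. With casting and MOTS-c the count of members was 8 to 9 with 1 library left out. Against a fold of at least 1.2, C3 (limma adjusted p = 0.2) and Serping1 (0.381) lost that call. At that fold 1788 of 14690 genes were higher with casting and 1279 with casting and MOTS-c. Between the casted groups it was 6 with only casted replicates 5 to 8, and 0 to 1 with 1 library left out. The cause was not tested.

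Over all genes, casting gave 9132 higher and 1091 lower on the deposited TPM, and 1788 and 1717 against a fold of at least 1.2 (4018 to 4265 and 3864 to 4144 with 1 library left out). Casting with MOTS-c gave 8808 and 1019, and 1279 and 1292 (3614 to 3981 and 3422 to 3743). With median-ratio scaling the splits were 5348 and 3192, and 4798 and 2826. MOTS-c in casted mice gave 2 higher and 1 lower. It gave 0 and 0 in limma with a pseudocount of 0.1, without a filter, with only 2 groups, with a separate spread per group and against a fold of at least 1.2, where 1955, 2682, 1554, 1639 and 97 genes had an unadjusted p under 0.05. It gave 3 and 5 on the deposited TPM, 2 and 2 with median-ratio scaling, 1 and 1 with only casted replicates 1 to 4 and 678 and 838 with only 5 to 8. With 1 library left out it gave 0 to 41 higher and 0 to 22 lower, with the most without casted replicate 1. Among other complement genes, the log2 change with casting turned to 0.027 for C1s1 and 0.272 for Cr1l on the deposited TPM.

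Deviations of same-numbered libraries had r between -0.25 and 0.37, over 0.1 in 1, 2 and 3 of 8 pairs of the 3 group pairs. Of 16 libraries, 3, 4 and 7 were most like their own number. The labels do not say that the numbers pair mice, and pairing was not tested. With the replicate block, MOTS-c gave 13 higher and 5 lower genes over all genes, and C5ar1 passed with casting (limma adjusted p = 0.0499), and it changed no other call among the members.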
